A study of Homo sapiens with 7 samples.

Results

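The genes described here form the oxidative stress response controlled by the transcription factor NRF2. The 10 genes were chosen by name as well-known parts of this pathway, with earlier results of these data known. They are NFE2L2, which encodes NRF2, its inhibitor KEAP1, and the target genes GCLC, GCLM, SLC7A11, TXN, TXNRD1, SRXN1, HMOX1 and OSGIN1. Each was found by its symbol in the deposited table, so that 10 of 58174 listed genes are described. The cells were Huh-7, which stem from a human liver carcinoma. They were harvested for RNA-seq 72 h after they had received either control siRNA (siC, n = 3 libraries) or siRNA pools against IGF2BP1 (siIGF2BP1, named siImp1 in the labels, n = 4). IGF2BP1 is an oncofetal RNA-binding protein, and the study asked which transcripts depend on it. All libraries came from 1 tumour-derived line, and no source says whether replicates were separate cultures, so p-values measure only the spread between these samples. A lower value in bulk RNA can stand for fewer cells that use a gene or for less RNA per cell, which cannot be told apart here.

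NRF2 is made continuously in most cells and is normally handed by KEAP1 to a CUL3 ubiquitin ligase for degradation. Oxidants and electrophiles modify reactive cysteines of KEAP1, NRF2 then accumulates, pairs with a small MAF protein and binds antioxidant response elements near its target genes. The targets make glutathione, reduce thioredoxin and peroxiredoxins, degrade haem and detoxify foreign compounds. Much of the control of NRF2 is exerted on the protein, which RNA-seq does not measure. The pathway is prominent in the liver, the main organ of detoxification, and is activated by mutation of NFE2L2 or KEAP1 in a share of liver cancers.

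The core letters of the antioxidant response element, TGACNNNGC, were sought on both strands of the promoters that RefSeq gives on build GRCh38.p14, from 250 bases before to 50 bases after a start site. The related letters TGAGNNNGC were sought too, which like the former can overlap the AP-1 site TGACTCA or TGAGTCA. Promoters were matched for 8 of the 10 genes, all but HMOX1 and SLC7A11, with 11 start sites in all. TGACNNNGC was present in 4 of the 11 windows and in 13.3% of all 35116 promoters of the same length, and TGAGNNNGC in 5 of the 11 and in 18.3% of all. At least 1 of both was present in 6 of the 11 windows, which belong to 5 genes, and in 29.1% of all promoters. A match describes letters and not a binding site.

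The windows shown here are those of the members closest to the results below, each 59 bases long and read on the strand of the gene, with the letters of the match named here in capitals. For TXNRD1, the member that changed past the threshold, both start sites are given. The first window lies at chr12:104215655-104215713 (+ strand), with a match centred at -95 from the start site. The second lies at chr12:104286905-104286963 (+), with a reverse-complement match centred at -98. Each of these promoters held a further match outside the window shown, TGACNNNGC at -4 in the first and TGAGNNNGC at -194 in the second. GCLM is shown as the partner of GCLC (chr1:93909431-93909489, - strand, match at -30), and KEAP1 as the inhibitor of NRF2 (chr19:10502769-10502827, -, match at -27). The KEAP1 window holds a further match to TGACNNNGC on the strand of the gene, centred at -50, which is left in lower case. TGAGNNNGC was also present in these promoters of GCLM and KEAP1, centred at -4 and -199, and the other KEAP1 start site held no match. For OSGIN1 (chr16:83953116-83953174, +, match at -95) the matched letters are TGAGNNNGC on the reverse strand and contain an AP-1 site, which the others shown do not. In GCLM and KEAP1 the capital letters are the same.
TXNRD1, first start site: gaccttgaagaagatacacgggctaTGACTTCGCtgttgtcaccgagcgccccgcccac
TXNRD1, second start site: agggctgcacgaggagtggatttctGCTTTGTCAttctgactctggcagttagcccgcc
GCLM: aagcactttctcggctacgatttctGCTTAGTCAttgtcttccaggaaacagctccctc
KEAP1: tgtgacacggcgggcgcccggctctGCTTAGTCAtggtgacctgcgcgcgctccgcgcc
OSGIN1: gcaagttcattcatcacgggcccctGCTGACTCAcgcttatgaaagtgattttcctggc

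The promoter of SRXN1, the member with the lowest siIGF2BP1 level relative to siC, held no match, and is shown whole for this reason (chr20:653151-653450, - strand). The windows of GCLC and TXN held none either.
SRXN1: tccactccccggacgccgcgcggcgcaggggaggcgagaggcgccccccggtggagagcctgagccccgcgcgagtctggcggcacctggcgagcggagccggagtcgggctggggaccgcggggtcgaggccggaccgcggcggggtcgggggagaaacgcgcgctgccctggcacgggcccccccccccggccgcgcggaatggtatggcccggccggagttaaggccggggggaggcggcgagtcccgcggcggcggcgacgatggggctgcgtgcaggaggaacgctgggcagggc

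Libraries held from 12826550 to 33212205 reads on genes. The knockdown was visible in each library: IGF2BP1 mRNA was at 81.9, 80.4 and 84.4 FPKM (fragments per kilobase of gene length, relative to library size) in siC and at 15.6, 15.7, 16.6 and 15.3 FPKM in siIGF2BP1, which is 19.2% of the siC mean (limma, adjusted p = 1.16e-05). The siC library of replicate 3 stood apart from all others on the first principal component. Its log2 values correlated with those of siC replicates 1 and 2 across genes at 0.916 and 0.929, against 0.971 between these. The deviation of each library from the mean of the others in its group was also set against the GC content of the genes. Spearman's rho was 0.43, 0.30 and -0.43 in siC and 0.0039, -0.39, 0.26 and 0.23 in siIGF2BP1, by replicate. A GC trend was thus not particular to siC replicate 3. The values of siC replicates 1 and 2 were taken against a mean that includes replicate 3. The value of siC replicate 3 lay outside the range of siC replicates 1 and 2 for 9 of the 10 genes. The same held for 64 of the 68 other tested genes of the wider list described below. The share over all genes was not computed, so the count is no trait of the members. Each member is also given without siC replicate 3. All 11 transcripts of a list of hepatocyte markers, among them ALB and AFP, were present at 1 FPKM or more. Of 10 markers of other cell types, DES and KRT7 were at 0 in all libraries and only PECAM1 and SOX9 reached a mean of 1 FPKM. The summed level of this list was 31.6 to 39.6 FPKM in siC and 21.4 to 22.4 FPKM in siIGF2BP1, most of it SOX9 and the rest nearly all PECAM1, and its part in the results below was not tested.

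IGF2BP1 depletion was accompanied by lower TXNRD1 mRNA, whereas the transcripts of NRF2 itself, GCLM, TXN, HMOX1 and SLC7A11 differed by less than the test could separate from the spread between libraries. Past an adjusted p of 0.01, 1 of the 10 genes was lower (TXNRD1) and 0 were higher. Over all 14839 genes tested, those whose mean reached 1 FPKM, 3.93% passed, 2.28% lower and 1.65% higher. With an unadjusted p under 0.05, 3 of the 10 were lower (TXNRD1, SRXN1, KEAP1) and 1 was higher (GCLC), against 25.9% of all genes in either direction. The siC and siIGF2BP1 values did not overlap for 3 of the 10 (the same 3 that were lower), against 27% of all genes. By voom on the reads recovered from the FPKM values, 2 were lower (TXNRD1 and SRXN1) and 0 higher, where 5.76% of all genes passed. The split of calls over all genes depended on this choice, with 338 lower and 245 higher by the test on log2 FPKM and 366 lower and 488 higher by voom. Without siC replicate 3, 1 was lower (TXNRD1) and 1 higher (GCLC), with 10.3% of all genes past the threshold. The median log2 change of the 10 genes was -0.16, and -0.076 without siC replicate 3, beside -0.017 and -0.031 for all genes tested.

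**Figure D1:**
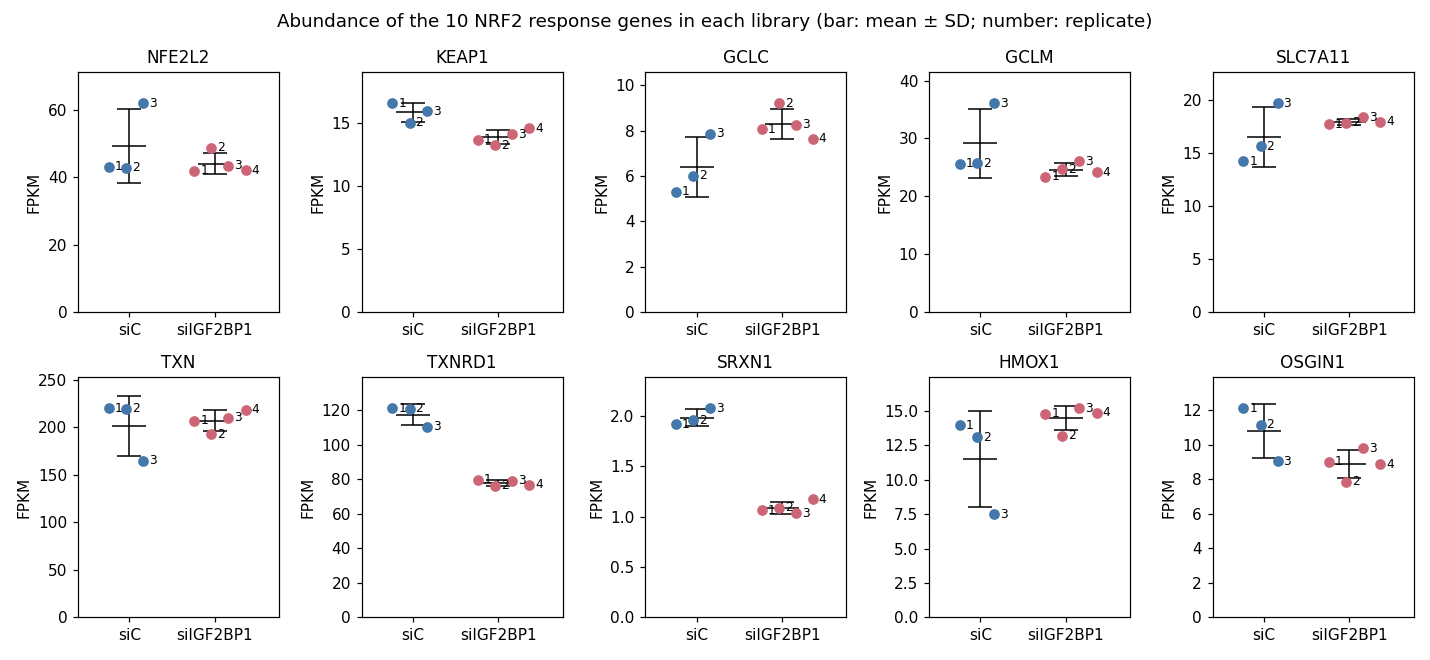
FPKM (linear axes from 0, a scale for each gene) of the 10 NRF2 response genes in each siC and siIGF2BP1 library, numbered by replicate, with bars for the mean ± SD. TXNRD1 and SRXN1 stand clearly lower in all 4 siIGF2BP1 libraries, and siC replicate 3 lies away from siC replicates 1 and 2 in most panels.

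The thioredoxin arm of the response held the lowest 2 log2 changes of the 10 genes, of which that of TXNRD1 passed the test. TXNRD1 (ENSG00000198431, chr12:104215779-104350307, + strand) encodes the cytosolic thioredoxin reductase, a selenoprotein that uses NADPH to reduce thioredoxin. Its mRNA was at 121, 121 and 110 FPKM in siC and at 79.8, 76.2, 79.1 and 76.8 FPKM in siIGF2BP1. All siIGF2BP1 libraries lay below all siC libraries, and the 4 of them spanned less than 4 FPKM. The mean fell from 117 ± 6.12 (SD, n = 3) to 78.0 ± 1.77 FPKM (SD, n = 4), which is 66.4% of siC. The log2 change was -0.59 (SE 0.061, 95% interval -0.73 to -0.44, limma, adjusted p = 0.00213), and it rested on at least 6685 reads in each library. Without siC replicate 3 it was -0.63 (adjusted p = 0.00041). Leaving out any of the other 6 libraries kept the change between -0.60 and -0.57, with adjusted p-values from 0.0113 to 0.016. In those 6 fits only 0.862% to 1.33% of all genes passed the threshold.

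SRXN1 (ENSG00000271303, chr20:646615-653200, - strand) encodes sulfiredoxin, which repairs peroxiredoxins that peroxide has over-oxidised. It was the member with the lowest mRNA level, at 1.92, 1.96 and 2.07 FPKM in siC and 1.06, 1.09, 1.03 and 1.17 FPKM in siIGF2BP1. The groups did not overlap. Mean levels were 1.98 ± 0.081 FPKM (SD, n = 3) for siC and 1.09 ± 0.058 FPKM (SD, n = 4) for siIGF2BP1, which is 54.9% of siC. The log2 change of -0.81 (SE 0.13, 95% interval -1.12 to -0.50) had an adjusted p of 0.0103 by limma and thus missed the threshold of 0.01 narrowly, while voom on recovered reads gave -0.79 and an adjusted p of 0.00424. The values came from 37 to 169 reads per library. In the GENCODE annotation of GRCh38, 90.7% of the exonic bases of SRXN1 are shared with ENSG00000270299, a read-through gene on the same strand, which is listed with 1 read in siC replicate 2 and at 0 in the other 6 libraries. How reads in shared exons were assigned is not stated. Reads left out of both genes would make the level of SRXN1 too low, so its level and its rank among the members are uncertain.

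TXN (ENSG00000136810, chr9:110243810-110256507, - strand) encodes thioredoxin, the small disulfide reductase that TXNRD1 keeps reduced. It was the most abundant member, at 220, 219 and 165 FPKM in siC and 207, 192, 210 and 218 FPKM in siIGF2BP1. The lowest value was that of siC replicate 3, and the siIGF2BP1 libraries lay within the range of siC. For TXN the log2 change was 0.050 (95% interval -0.23 to 0.33, adjusted p = 0.841), and -0.088 without siC replicate 3 (adjusted p = 0.30).

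The glutathione arm gave values on both sides of 0. GCLC (ENSG00000001084, chr6:53497341-53616970, - strand) and GCLM (ENSG00000023909, chr1:93885199-93909456, - strand) encode the catalytic and the modifier subunit of glutamate-cysteine ligase, the rate-limiting enzyme of glutathione synthesis. GCLC mRNA was at 5.31, 6.01 and 7.86 FPKM in siC and at 8.05, 9.21, 8.26 and 7.65 FPKM in siIGF2BP1. Only siC replicate 3 reached into the range of the siIGF2BP1 libraries. Mean levels were 6.39 ± 1.32 FPKM (SD, n = 3) for siC and 8.29 ± 0.661 FPKM (SD, n = 4) for siIGF2BP1, and the log2 change of 0.39 (95% interval 0.060 to 0.71) did not pass the test (limma, adjusted p = 0.131). Without siC replicate 3 it was 0.54 (95% interval 0.32 to 0.76) and passed (adjusted p = 0.0088). The call for GCLC thus turned on that library.

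GCLM mRNA was at 25.6, 25.7 and 36.1 FPKM in siC and at 23.4, 24.6, 26.1 and 24.1 FPKM in siIGF2BP1. siC replicate 3 was the highest of all libraries, and siC replicates 1 and 2 lay among the siIGF2BP1 values. The log2 change was -0.23 (95% interval -0.53 to 0.074, adjusted p = 0.322), and -0.064 without siC replicate 3 (adjusted p = 0.406).

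SLC7A11 (ENSG00000151012, chr4:138164097-138242349, - strand) encodes the light chain of the cystine-glutamate exchanger, which supplies cysteine for glutathione. Its mRNA was at 14.2, 15.6 and 19.7 FPKM in siC and at 17.7, 17.9, 18.4 and 17.9 FPKM in siIGF2BP1. The siIGF2BP1 libraries lay close together, above siC replicates 1 and 2 and below replicate 3. The log2 change was 0.13 (95% interval -0.12 to 0.39, adjusted p = 0.504), and 0.27 without siC replicate 3, where it missed the threshold (adjusted p = 0.0127).

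Neither of the regulators NFE2L2 and KEAP1 passed the test. NFE2L2 (ENSG00000116044, chr2:177218667-177392756, - strand), the gene of NRF2, was at 43.0, 42.8 and 61.9 FPKM in siC and at 41.9, 48.7, 43.4 and 42.1 FPKM in siIGF2BP1. Apart from siC replicate 3, all libraries lay between 41.9 and 48.7 FPKM. The log2 change was -0.14 (95% interval -0.47 to 0.19, adjusted p = 0.602) and changed sign, to 0.036, without that library (95% interval -0.13 to 0.20, adjusted p = 0.747). In GENCODE, 23.4% of the exonic bases of NFE2L2 are shared with HNRNPA3 on the other strand and 13.6% with the lncRNA ENSG00000213963 on the same strand. These shares are of 14975 bases, against a deposited gene length of 5979 bases, so they need not hold for the reads counted.

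KEAP1 (ENSG00000079999, chr19:10486125-10503558, - strand), the adaptor that marks NRF2 for degradation, was at 16.6, 15.0 and 16.0 FPKM in siC and at 13.7, 13.3, 14.1 and 14.6 FPKM in siIGF2BP1. The groups did not overlap, but the closest libraries of both groups were near each other, at 15.0 and 14.6 FPKM. Mean levels were 15.9 ± 0.790 FPKM (SD, n = 3) for siC and 13.9 ± 0.576 FPKM (SD, n = 4) for siIGF2BP1. The log2 change of -0.19 (95% interval -0.34 to -0.038) did not pass the test (limma, adjusted p = 0.114), nor did the -0.18 without siC replicate 3 (adjusted p = 0.0784).

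HMOX1 (ENSG00000100292, chr22:35380361-35394214, + strand) encodes haem oxygenase, which opens the haem ring and releases iron, and is among the most inducible targets of NRF2. Its mRNA was at 14.0, 13.1 and 7.49 FPKM in siC and at 14.8, 13.2, 15.2 and 14.9 FPKM in siIGF2BP1. The low value of siC replicate 3, from 248 reads, made most of the difference between the means. On the log2 scale the change of HMOX1 was 0.38 (95% interval -0.11 to 0.87, adjusted p = 0.309), and 0.099 without that library (95% interval -0.067 to 0.26, adjusted p = 0.344).

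OSGIN1 (ENSG00000140961, chr16:83931311-83966332, + strand) encodes an oxidative stress-induced growth inhibitor. It was at 12.1, 11.2 and 9.05 FPKM in siC and at 9.01, 7.86, 9.79 and 8.86 FPKM in siIGF2BP1. siC replicates 1 and 2 lay above all siIGF2BP1 libraries and replicate 3 among them. On the log2 scale the change of OSGIN1 was -0.27 (95% interval -0.55 to 0.011, adjusted p = 0.208), and -0.39 without siC replicate 3, which also missed the threshold (adjusted p = 0.0271).

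**Figure D2:**
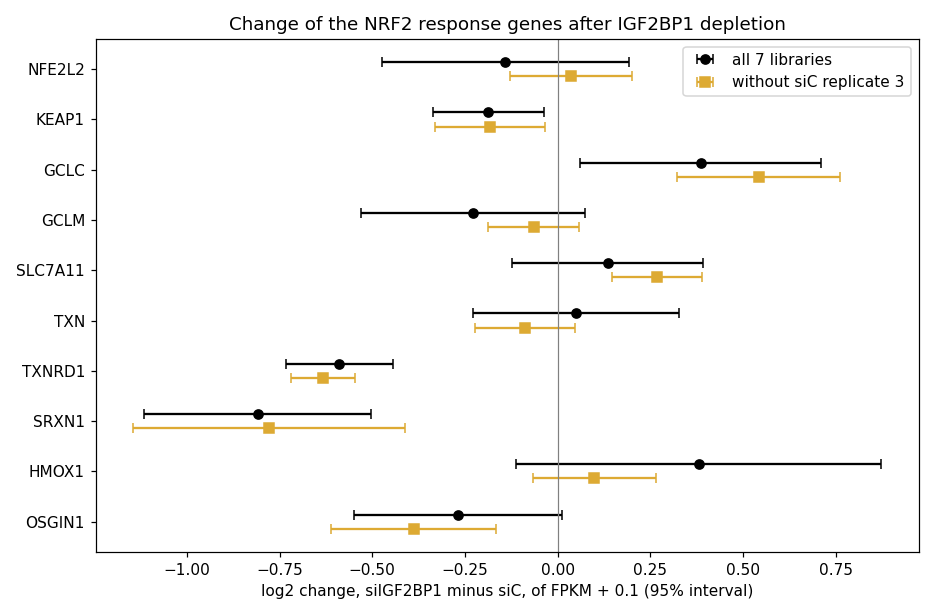
Log2 change (siIGF2BP1 minus siC, horizontal axis) of each of the 10 genes with its 95% interval, from all 7 libraries (circles) and without siC replicate 3 (squares). TXNRD1 and SRXN1 lie below 0 in both fits, and the estimates of NFE2L2 and TXN lie on different sides of 0 in the 2 fits.

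Ratios within a library are free of its scaling and were examined for 4 pairs of genes whose products act together. The pairs were chosen after the values had been seen, and the ratios are given as a description without a test. How often other pairs of genes separate the groups was not computed. GCLM over GCLC was 4.82, 4.28 and 4.59 in siC and 2.91, 2.68, 3.15 and 3.16 in siIGF2BP1. The siC libraries, replicate 3 included, lay above all siIGF2BP1 libraries, although the FPKM values of neither gene separated the groups. The mean ratio was 4.56 ± 0.272 (SD, n = 3) in siC and 2.97 ± 0.230 (SD, n = 4) in siIGF2BP1, so that the mRNA of the modifier subunit was lower relative to that of the catalytic subunit.

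The ratio of TXNRD1 over TXN, the reductase over its substrate, was 0.551, 0.550 and 0.669 in siC and 0.386, 0.396, 0.376 and 0.352 in siIGF2BP1. The groups did not overlap, as they did not for TXNRD1 alone, and the mean ratio in siIGF2BP1 was 64.0% of that in siC. The ratio of NFE2L2 over KEAP1, the factor over its inhibitor, was 3.10 ± 0.682 (SD, n = 3) in siC and 3.17 ± 0.343 (SD, n = 4) in siIGF2BP1, with overlapping libraries. The ratio of SLC7A11 over SLC3A2, the light over the heavy chain of the cystine exchanger, was 0.378 ± 0.138 (SD, n = 3) and 0.450 ± 0.023 (SD, n = 4) and overlapped likewise.

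**Figure D3:**
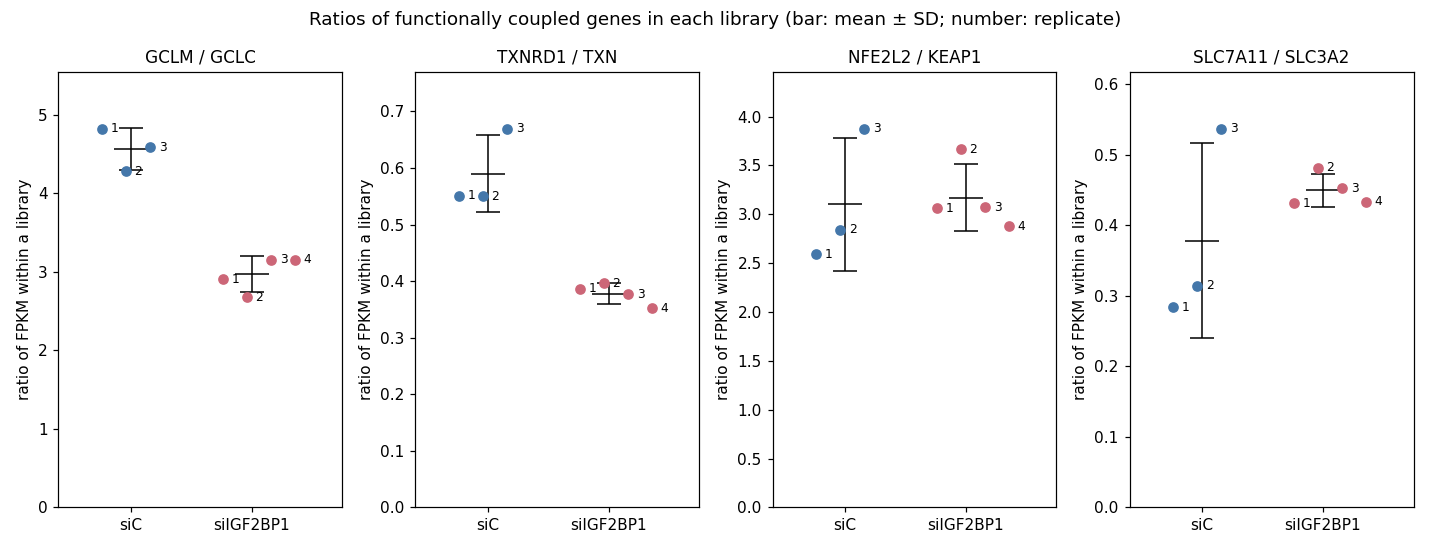
Ratio of FPKM within each library (linear axes from 0, points numbered by replicate, bars for the mean ± SD) for 4 pairs of genes. All siC libraries lie above all siIGF2BP1 libraries for GCLM over GCLC and for TXNRD1 over TXN, and the groups overlap for NFE2L2 over KEAP1 and SLC7A11 over SLC3A2.

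The members covered a wide range of levels on the FPKM scale, which accounts for gene length. In siC the order of the means was TXN, TXNRD1, NFE2L2, GCLM, SLC7A11, KEAP1, HMOX1, OSGIN1, GCLC and SRXN1. Neighbours in this order were separated in every library, except SLC7A11 from KEAP1 and HMOX1 from OSGIN1. In siIGF2BP1 HMOX1 stood before KEAP1 and the rest of the order was kept, with overlapping libraries for HMOX1 and KEAP1 and for OSGIN1 and GCLC. TXN and TXNRD1 ranked among the abundant transcripts of the cells, at percentiles 98.8 and 97.3 of all genes tested. SRXN1 ranked at percentile 10.8, but its level is uncertain because of the shared exons described above.

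A wider list of 82 genes of the NRF2 pathway, written from general knowledge and including the 10, placed them among their partners. This list too was chosen with earlier results of these data known. Of its 72 other genes, 68 were tested, since AKR1C3, UGT1A6, ALDH3A1 and NRG4 had means under 1 FPKM. Of the 68, 2 fell (FOXO3 and BLVRB) and 2 rose (GSTA1 and GSTA2), against 3.93% of all genes in either direction, and their median log2 change was -0.0025. By an unadjusted p under 0.05, 9 were lower and 15 higher, beside 25.9% of all genes. The groups did not overlap for 20 of the 68, 6 lower and 14 higher, a share near the 27% of all genes. By voom 3 were lower and 3 higher, where 5.76% of all genes passed, and without siC replicate 3 there were 6 lower and 5 higher, where 10.3% did.

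GSTA1 and GSTA2 encode alpha-class glutathione transferases of the liver, which couple glutathione to electrophiles. GSTA1 mRNA was at 4.18, 4.69 and 2.71 FPKM in siC and at 10.1, 9.31, 10.2 and 9.45 FPKM in siIGF2BP1, a log2 change of 1.35 (95% interval 0.94 to 1.77, limma, adjusted p = 0.00484) from 38 to 186 reads per library. GSTA2 was at 2.83, 2.45 and 2.05 FPKM in siC and at 4.12, 5.00, 5.63 and 5.81 FPKM in siIGF2BP1, a log2 change of 1.04 (95% interval 0.68 to 1.41, adjusted p = 0.00755). All siIGF2BP1 libraries lay above all siC libraries for both. The genes are close copies of each other, and the share of reads counted for each is uncertain.

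BLVRB, which encodes biliverdin reductase B, was at 16.9, 14.0 and 12.5 FPKM in siC and at 9.15, 8.49, 8.61 and 8.74 FPKM in siIGF2BP1 (log2 change -0.71, 95% interval -0.95 to -0.47, adjusted p = 0.00712). FOXO3, a transcription factor that also controls antioxidant genes, was at 9.22, 9.83 and 11.1 FPKM in siC and at 7.22, 7.003, 6.28 and 6.40 FPKM in siIGF2BP1 (log2 change -0.57, 95% interval -0.78 to -0.36, adjusted p = 0.00904). Neither gene overlapped between the groups. As for TXNRD1, the 4 genes passed without siC replicate 3 and missed the threshold when any other single library was left out, with adjusted p-values from 0.0101 to 0.0389.

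Among the regulators, 1 of 12 genes other than NFE2L2 and KEAP1 passed the test (FOXO3), beside 3.93% of all genes. By an unadjusted p under 0.05, 3 were lower and 0 higher, beside 25.9% of all genes. By voom 2 were lower and 0 higher, where 5.76% of all genes passed. The NRF2 partner MAFG averaged 9.22 ± 0.285 FPKM (SD, n = 3) for siC and 9.29 ± 0.104 FPKM (SD, n = 4) for siIGF2BP1, with a log2 change of 0.011 (95% interval -0.12 to 0.14, adjusted p = 0.929). BACH1, a repressor that competes with NRF2 at its elements, had a log2 change of 0.091 (95% interval -0.27 to 0.45, adjusted p = 0.771), and SQSTM1, which sequesters KEAP1, one of -0.052 (95% interval -0.33 to 0.23, adjusted p = 0.837). For both the interval spans 0, and the sign changed with the library left out. MAFK, named after its values had been seen, averaged 6.19 ± 0.729 FPKM (SD, n = 3) for siC and 3.80 ± 0.520 FPKM (SD, n = 4) for siIGF2BP1 without overlap, and missed the threshold (log2 change -0.69, adjusted p = 0.0173). MAFK passed without siC replicate 3 (adjusted p = 0.00725), by voom (0.00954) and with the GC trend removed (0.00934). PALB2, likewise named after its values had been seen, did not overlap between the groups either. It missed the threshold too (log2 change -0.42, limma, adjusted p = 0.0142).

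In the thioredoxin system, none of the 9 genes other than TXN, TXNRD1 and SRXN1 passed (1 lower and 2 higher by an unadjusted p under 0.05, beside 25.9% of all genes, and 0 by voom). The mitochondrial reductase TXNRD2 was at 4.29, 4.33 and 3.59 FPKM in siC and at 5.00, 4.60, 4.99 and 5.11 FPKM in siIGF2BP1. Its siIGF2BP1 values lay above all siC values, opposite to the cytosolic TXNRD1, with a log2 change of 0.27 (95% interval 0.063 to 0.48) that did not pass the test (adjusted p = 0.103). Mitochondrial thioredoxin, TXN2, had a log2 change of -0.15 (95% interval -0.33 to 0.031, adjusted p = 0.279). Of the 6 genes that supply NADPH 0 passed (0 lower and 1 higher by an unadjusted p under 0.05, against the same 25.9%, and 0 by voom).

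Among the 13 glutathione genes other than the members, GSTA1 and GSTA2, close copies of each other, were the only ones past the threshold, beside 3.93% of all genes. By an unadjusted p under 0.05, 0 were lower and 3 higher, beside 25.9% of all genes. With voom 0 were lower and 2 higher, where 5.76% of all genes passed. SLC3A2, the heavy chain that anchors SLC7A11 in the membrane, was at 50.2, 49.8 and 36.7 FPKM in siC and at 41.0, 37.1, 40.6 and 41.4 FPKM in siIGF2BP1. siC replicate 3 was the lowest of all libraries, and the log2 change of -0.17 (adjusted p = 0.431) became -0.32 and passed without it (adjusted p = 0.00914).

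Of 14 tested genes of detoxification and export, 0 passed the test, with 8 higher and 1 lower by an unadjusted p under 0.05 (25.9% of all genes) and 0 lower and 1 higher by voom. The groups did not overlap for 7 higher genes and 1 lower gene, beside 27% of all genes, and the median log2 change was 0.19. NQO1, a quinone reductase often read as a marker of NRF2 activity, was among the abundant transcripts, at 344, 343 and 300.1 FPKM in siC and 335, 310.3, 332 and 335 FPKM in siIGF2BP1. Its values overlapped, with a log2 change of -0.0018 (95% interval -0.19 to 0.19, adjusted p = 0.993). The genes below were named after their values had been seen. The carbonyl reductase CBR1 averaged 17.8 ± 3.36 FPKM (SD, n = 3) for siC and 24.9 ± 1.72 FPKM (SD, n = 4) for siIGF2BP1 (log2 change 0.50, adjusted p = 0.0606). The epoxide hydrolase EPHX1 had a log2 change of 0.34 (adjusted p = 0.0155) and the exporter ABCC1 one of 0.56 (adjusted p = 0.0346), and neither passed. The 1 lower gene without overlap was AKR1B1 (log2 change -0.18, limma, adjusted p = 0.133). ABCC1 was the gene that passed by voom (adjusted p = 0.00784).

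**Figure D4:**
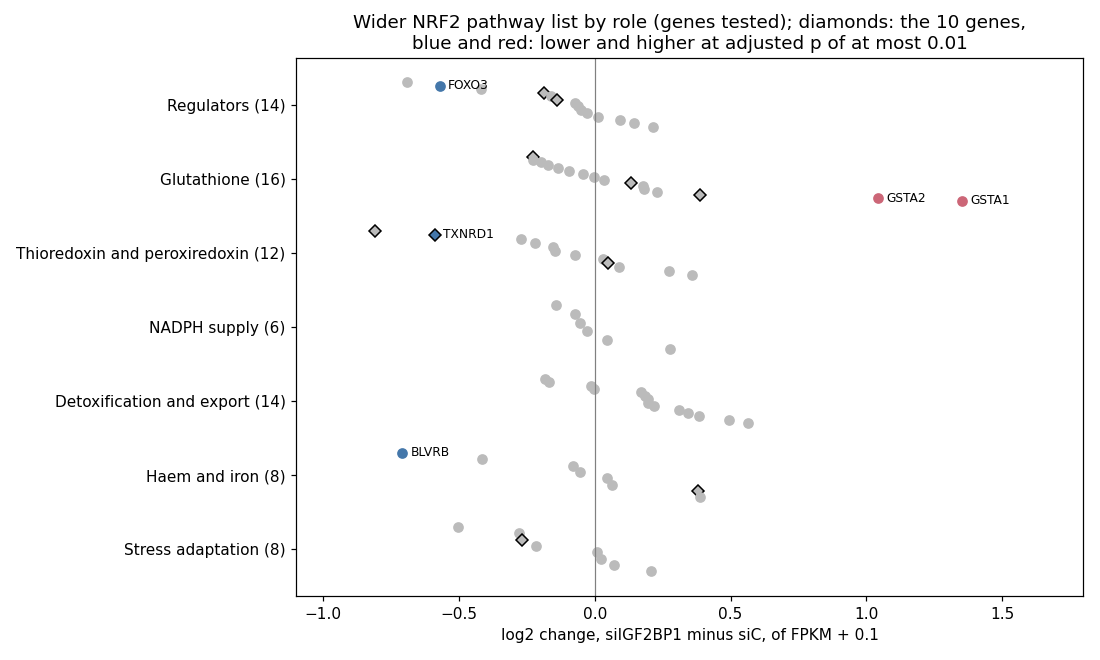
Log2 change (siIGF2BP1 minus siC, horizontal axis) of the 78 tested genes of the wider NRF2 list, grouped by role, with the 10 members as diamonds and genes past an adjusted p of 0.01 in blue (lower) or red (higher) with their names. TXNRD1, FOXO3 and BLVRB lie on the lower side, GSTA1 and GSTA2 on the higher side, and the genes of detoxification and export have a median of 0.19.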

How the data were processed

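Total RNA from 3 siC and 4 siIGF2BP1 Huh-7 samples was depleted of ribosomal RNA by the authors, converted into strand-aware libraries and sequenced on an Illumina instrument. Per the submitters' processing notes and the study's methods, the authors clipped reads with cutadapt (version 1.14), aligned them with HISAT2 (2.1.0), used SAMtools (1.5) and counted reads per gene with featureCounts (1.5.3) on build GRCh38 with an Ensembl annotation. Whether strand was used in counting is not given in the sources used here, so genes that overlap others are uncertain to that extent. The deposited table gives 1 FPKM value per gene and library, scaled by the authors to library sizes normalised with the TMM method of edgeR (3.18.1). Its columns of log2 fold changes, p-values and FDR hold the authors' own comparison and were not used. The number of sample columns without a matching label was 0. Products of FPKM and gene length were whole reads for 100% of values (tolerance 0.1 reads), which gave depths of 12826550 to 33212205 reads.

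Tests covered the 14839 genes whose FPKM averaged 1 or more across libraries. The log2 of FPKM plus a pseudocount of 0.1 was fitted with limma (3.58.1, R 4.3.3) using its trend option, two-sided and without covariates, and p-values were adjusted over all of these genes by the Benjamini-Hochberg method, at the study's threshold of 0.01. The pseudocount makes changes at low FPKM appear smaller than they were. The members, the wider list and the tests were chosen with earlier results of these data known. By the rule used, all 10 members, IGF2BP1, every gene of the wider list past the threshold and NQO1, SLC3A2, TXN2, TXNRD2, MAFG, BACH1 and SQSTM1 were named; others are marked. Gene positions and exon overlaps were taken from GENCODE on GRCh38, an annotation that may differ from the authors'. On simulated reads of this design (14635 genes), limma recovered 52 of 100 genes changed 2-fold and 96 of 100 changed 4-fold, with 1 unchanged gene called, and voom 88 and 99 of 100. The simulated libraries held no library that stood apart and no GC trend, unlike the real ones. These figures therefore need not hold for the real libraries. The alternatives were another pseudocount (1), no filter or one at a mean of 5 FPKM, centring on the median, quantile normalization, voom on recovered reads, array weights, the replicate number as a block, a threshold of 0.05, each library left out in turn and, chosen after seeing the data, removal of a trend with GC content.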

Additional observations from a re-analysis of the deposited data

Results flagged for a closer look

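In the 4 siIGF2BP1 libraries, the 22 genes named by rule and the 4 ratios were examined for a value that stands apart, by setting the distance of the highest or lowest library to its nearest neighbour against the whole range of the group (Dixon's criterion at the 95% level). Chance gives about 1.3 such values in 26. There were 2, both of them the lowest value and both from siIGF2BP1 replicate 2. For NQO1 this library was at 310.3 FPKM with the others at 332 to 335 FPKM, a distance of 0.876 of the range. For TXN2 it was at 27.4 FPKM with the others at 30.6 to 31.1 FPKM, a distance of 0.858 of the range.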

How the results depend on the processing

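The log2 changes of TXNRD1 and SRXN1 kept their sign under all alternatives that gave a value. The ratios GCLM over GCLC and TXNRD1 over TXN remained within the spread of their replicates under all 16 that were run. Median centring and the choice of filter cannot change a ratio within a library, so these settings do not test it. SRXN1, GSTA2 and TXNRD2 had no value at a mean of at least 5 FPKM, and the setting without a filter covered all genes above 0 in any library. The count of members that were lower, 1 in the report, was 2 with a pseudocount of 1, quantile normalization, voom, GC trend removal or a threshold of 0.05, 3 with array weights, and 0 to 1 with 1 library left out. The count of members that were higher, 0 in the report, was 2 with array weights and 0 to 1 with 1 library left out. In the wider list, the 3 lower genes became 1 without a filter, 5 by voom, 23 with array weights, 6 at a threshold of 0.05 and 0 to 7 with 1 library left out. The 2 higher genes became 0 without a filter, 1 at a mean of at least 5 FPKM, 20 with array weights, 6 at a threshold of 0.05 and 0 to 6 with 1 library left out. Among the 4 other genes called there, all were lost without a filter (adjusted p from 0.0106 to 0.0188), FOXO3 with quantile normalization (0.011) and GC trend removal (0.0122), BLVRB with median centring (0.0123) and quantile normalization (0.0119), and GSTA2 with quantile normalization (0.0103) and GC trend removal (0.0115). The fit with array weights, which weights each library by its spread, called 36.5% of all genes and stopped before it converged.

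SRXN1 passed in 5 alternative fits, at -0.51 on the log2 scale with a pseudocount of 1, -0.89 with quantile normalization, -0.79 by voom, -0.80 with array weights and -0.79 with the GC trend removed. With array weights GCLC (0.43, adjusted p = 0.000359), SLC7A11 (0.20, adjusted p = 0.0023) and OSGIN1 (-0.31, adjusted p = 0.00153) passed, and the signs of NFE2L2 (0.0094) and TXN (-0.075) changed. With 1 library left out, the log2 change ran from -0.63 to -0.57 for TXNRD1, 0.26 to 0.54 for GCLC, -0.23 to 0.036 for NFE2L2, -0.088 to 0.12 for TXN, -0.067 to 0.032 for NQO1, -0.20 to 0.038 for SQSTM1, -0.012 to 0.032 for MAFG and -0.029 to 0.28 for BACH1. NQO1 was at 0.028 with median centring, 0.20 with quantile normalization, 0.061 by voom and 0.022 with the GC trend removed, and SQSTM1 at 0.028 with quantile normalization and 0.014 by voom. The cause of these differences was not tested.

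Replicates 1 to 3 carry the same numbers in both groups, and no source says whether same-numbered samples were paired. Deviations of same-numbered libraries from their group means correlated at -0.026, -0.118 and -0.111. These values cannot decide the question, since the groups are small and siC replicate 3 stood apart. With the replicate block, 0 members and 0 genes of the wider list passed in either direction, as for all genes, with TXNRD1 at -0.58 (adjusted p = 0.142) and IGF2BP1 at -2.36 (adjusted p = 0.0909). Depth limits SRXN1, GSTA1 and GSTA2, which had the fewest reads of the genes with full values.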
